A study of Mus musculus with 8 samples.

Results

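Semaphorins are extracellular guidance proteins that share a Sema domain and act on cells through plexin receptors, in the case of most secreted class 3 members together with neuropilins. They steer growing axons by repulsion or attraction, and in the mature brain they also act on the number and strength of synapses. In the mouse striatum, Sema3e that arrives with thalamic axons and its receptor Plxnd1 on direct-pathway neurons are known to limit thalamostriatal synapses. The 10 members described here are Sema3a and Sema3e (secreted), Sema4a, Sema4b and Sema4d (transmembrane), Sema5a and Sema5b (transmembrane with thrombospondin repeats), Sema6a and Sema6d (transmembrane) and Sema7a, which is held to the membrane by a lipid anchor. They are 10 of 20 semaphorin rows among 32531 genes, taken by gene symbol and chosen with earlier results of these data known. All 10 passed the filter on low counts that left 12467 genes to test.

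The 2 groups are ribosome-bound RNA of the nucleus accumbens (4 libraries) and of the dorsal striatum (4 libraries). All animals carried the Drd1-EGFP/Rpl10a (CP73) transgene, were aged to more than 20 months and had no treatment. In this line the Drd1 promoter drives a ribosomal protein tagged with green fluorescent protein, and antibodies to the tag pull down polysomes, mainly of direct-pathway projection neurons. Whether a library came from a single animal or from several is not stated, and the spread behind each p-value is that between libraries, which may be technical. Unpurified tissue was not analysed here, so a semaphorin transcript could come from tagged cells or be carried over from others. A lower value can mean fewer cells with the transcript or less of it per cell, which cannot be told apart in bulk RNA.

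Gene counts ran from 10831937 to 12639641 in accumbens and from 7466970 to 10363145 in dorsal striatum, and no library of one region overlapped the other in total. Reads that no gene received were 35.5% to 40.6% of those counted in accumbens and 27.1% to 33.8% in dorsal striatum, again without overlap. A two-sided exact permutation test gave p = 0.0286, the smallest value that 4 against 4 libraries can give. Rn45s, the precursor of ribosomal RNA, took 6.11% ± 0.464 of gene counts in accumbens and 3.58% ± 1.79 in dorsal striatum (SD, n = 4 each, exact permutation p = 0.0571). These differences run with region in every comparison given here, and their part in the calls was not tested. The 10 semaphorins had between 45 and 1271 counts in each library. Drd1 averaged 435 ± 86.5 CPM (counts relative to a library's TMM-scaled total) in accumbens and 605 ± 60.9 CPM in dorsal striatum (SD, n = 4 each). The regions overlapped, and edgeR did not call Drd1 (log2 fold change -0.47, adjusted p = 0.0750). Of 9 direct-pathway markers, 7 had negative and 2 positive log2 fold changes. Among them Pdyn was called higher in accumbens, and Ebf1 and Eya1 were called lower. The 7 markers of indirect-pathway neurons, which the transgene should not tag, were all present and summed to 667 to 945 CPM in accumbens and 252 to 355 CPM in dorsal striatum. Of these 7 markers, 3 (Drd2, Adora2a and Penk) were called higher in accumbens and 0 lower. Over all tested genes, the shares were 1.60% and 2.12%. The part of indirect-pathway neurons in the semaphorin values was not tested.

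Of the 10 semaphorins, 3 differed between regions at a Benjamini-Hochberg adjusted p under 0.05 over all genes (edgeR's quasi-likelihood test). Sema5b was higher in accumbens, and Sema7a and Sema3e were lower there. Among all tested genes, 1.60% were called higher and 2.12% lower in accumbens. The family as a whole was not tested. The median log2 fold change was 0.43 over the 10 members, 6 positive and 4 negative, and 0.02 over all genes tested, 6458 positive and 6009 negative.

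The promoters of the 3 called genes are shown because 2 of them were lower and 1 was higher in the same libraries. Each window runs from 250 bases before to 50 bases after the RefSeq start on GRCm38.p6, all on the plus strand, and capitals mark motif matches on either strand. Sema3e lies at chr5:14025026-14025325, Sema7a at chr9:57939862-57940161 and Sema5b at chr16:35541112-35541411.
Sema3e: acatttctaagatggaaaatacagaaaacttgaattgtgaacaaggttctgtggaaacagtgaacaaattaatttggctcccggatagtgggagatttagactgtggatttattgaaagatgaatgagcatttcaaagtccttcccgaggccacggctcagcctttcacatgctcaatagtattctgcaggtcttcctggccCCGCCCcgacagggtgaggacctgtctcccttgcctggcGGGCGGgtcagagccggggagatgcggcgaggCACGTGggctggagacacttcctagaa
Sema7a: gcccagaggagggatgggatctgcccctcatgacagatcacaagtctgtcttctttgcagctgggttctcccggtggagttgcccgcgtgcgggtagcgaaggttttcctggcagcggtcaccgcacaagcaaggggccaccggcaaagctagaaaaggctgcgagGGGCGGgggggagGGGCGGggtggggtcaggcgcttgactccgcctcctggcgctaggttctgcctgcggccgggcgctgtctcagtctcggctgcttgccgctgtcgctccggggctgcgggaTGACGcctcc
Sema5b: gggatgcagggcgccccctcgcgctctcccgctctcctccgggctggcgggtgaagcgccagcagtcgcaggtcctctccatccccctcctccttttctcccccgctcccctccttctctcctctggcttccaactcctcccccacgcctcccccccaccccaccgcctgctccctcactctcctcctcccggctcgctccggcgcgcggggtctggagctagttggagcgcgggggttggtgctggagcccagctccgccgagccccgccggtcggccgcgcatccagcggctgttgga

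The motifs searched, on both strands, were the GC box GGGCGG, the CCAAT box spelled as its name, the TATA box TATAAA, the core of the cAMP response element TGACG and the E box CACGTG, none of which contains another. Sema3e held a GC box at 48 and at 9 bases before the start and an E box 23 bases after it. Sema7a held GC boxes at 84 and 71 bases before the start and a TGACG 40 bases after it. In the Sema5b window none of these letter strings occurred. GENCODE M21 starts Sema5b at 35541145, near the beginning of this window, so few of its bases lie before that start. For Sema3e and Sema7a the RefSeq and GENCODE starts are the same. Over 32851 promoter windows of the same length, 35.7% held the GC box, 37.4% the CCAAT box, 13.6% the TATA box, 20.8% the response element core and 7.15% the E box. G and C made up 50.7% of the Sema3e window, 67.3% of the Sema7a window and 73.0% of the Sema5b window, against a median of 52.7% over all windows. The search covered windows of 9 of the 10 members, and Sema6a was left out of it. Gene positions below are those of GENCODE M21 on GRCm38, counted from 1.

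**Figure D1:**
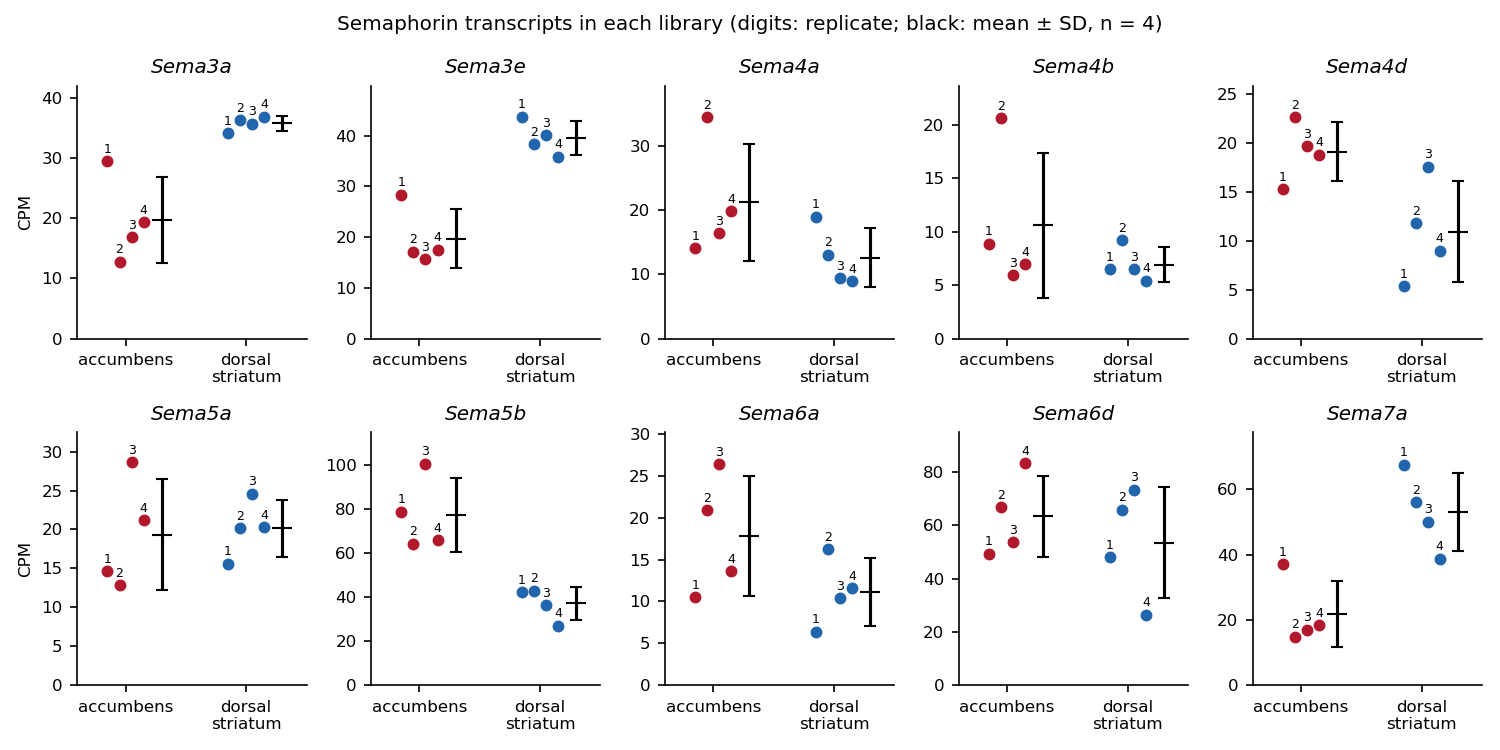
CPM of each of the 10 semaphorins (vertical axis) in the 4 accumbens libraries (red) and the 4 dorsal striatum libraries (blue), with the replicate number beside each point and the mean ± SD in black. Sema5b lies above dorsal striatum in all 4 accumbens libraries, Sema3a, Sema3e and Sema7a lie below it in all 4, and the other 6 overlap.

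Sema5b, a class 5 semaphorin known in rodent neurons to repel axons and remove synapses, was the member higher in accumbens. It stood at 78.6, 64.1, 100.5 and 65.7 CPM in accumbens replicates 1 to 4, against 42.1, 42.9, 36.2 and 26.9 CPM in dorsal striatum. The lowest accumbens library thus lay above the highest dorsal one, a separation that 4.51% of all tested genes showed in this direction. The log2 fold change was 1.06 ± 0.21 SE (95% confidence interval 0.61 to 1.51, adjusted p = 0.00683), about 2.09-fold. Leaving out any single library kept the call, at an adjusted p of at most 0.0346.

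Sema5b (chromosome 16, 35541145 to 35664732) is itself on the list of 10 striosome markers, genes of the patch compartment of the striatum. Of the other 9 striosome genes, 4 (Kcnip1, Lypd1, Nnat and Pdyn) were called higher and 0 lower in accumbens. Over all tested genes, the shares were 1.60% and 2.12%. Pdyn and Tac1 are also on the list of direct-pathway markers above. The 9 genes summed to 1035 to 1188 CPM in accumbens and 579 to 739 CPM in dorsal striatum. The largest parts of the accumbens sum were Pdyn (mean 427 CPM, 211 in dorsal striatum), Tac1 (306 and 295 CPM) and Nnat (201 and 34.5 CPM). Among those not called, Kremen1 had a log2 fold change of -2.04 (adjusted p = 0.0533), with all accumbens libraries below all dorsal ones. The others not called were Khdrbs3 (-0.27), Tac1 (0.05), Mfge8 (0.67) and Oprm1 (0.73). Whether Sema5b moved with the share of striosome cells was not tested. The 3 genes whose centred log2 CPM profile over the 8 libraries lay closest to that of Sema5b were Chn2, Galnt16 and Pdyn, at root-mean-square differences of 0.15, 0.17 and 0.18 among 9808 genes. Chn2 encodes a Rac GTPase-activating protein, Galnt16 a glycosyltransferase and Pdyn the precursor of dynorphin peptides. Pdyn averaged 427 CPM in accumbens and 211 CPM in dorsal striatum. Profiles were compared over the same 8 libraries, so genes chosen this way share the regional difference by construction.

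Its class partner Sema5a (chromosome 15, 32244810 to 32696341), which in the mouse limits synapse formation on hippocampal granule cells, did not pass the test. Sema5a stood at 14.6, 12.9, 28.7 and 21.2 CPM in accumbens and at 15.6, 20.2, 24.6 and 20.3 CPM in dorsal striatum. The regions overlapped fully, and the log2 fold change was -0.06 ± 0.30 SE (95% confidence interval -0.70 to 0.58, adjusted p = 0.964). Whether the fold changes of the 2 class 5 genes differ was not tested.

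Sema7a, the lipid-anchored member that promotes axon growth through integrin beta 1 and also binds Plxnc1, had the largest fold change of the 10 members. It stood at 37.0, 14.8, 17.0 and 18.4 CPM in accumbens, against 67.6, 56.0, 50.1 and 38.7 CPM in dorsal striatum. All 4 accumbens libraries lay below all 4 dorsal ones, as for 5.18% of tested genes, but accumbens 1, at 37.0 CPM, came close to dorsal striatum 4, at 38.7 CPM. The log2 fold change was -1.28 ± 0.29 SE (95% confidence interval -1.90 to -0.67, adjusted p = 0.0156). The call was lost without accumbens 3 (adjusted p = 0.0572) or dorsal striatum 1 (0.0717), and without accumbens 2 and dorsal striatum 3 together (0.0674).

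Sema7a (chromosome 9, 57940112 to 57962865) was closest in profile to another semaphorin, Sema3e, with a root-mean-square difference of 0.26 on the log2 scale, and then to Gli3 and B3gnt2, at 0.27 and 0.28. Gli3 encodes a transcription factor of hedgehog signalling and B3gnt2 a glycosyltransferase. Their log2 fold changes were -1.62 for Gli3 and -1.43 for B3gnt2, differences that the choice by profile itself brings about.

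Sema3e, the secreted ligand that binds Plxnd1 without a neuropilin, was also lower in accumbens. It stood at 28.3, 17.1, 15.6 and 17.6 CPM in accumbens and at 43.8, 38.4, 40.1 and 35.9 CPM in dorsal striatum. The 2 ranges were apart, with accumbens 1 again the highest of its region. The log2 fold change was -1.01 ± 0.25 SE (95% confidence interval -1.53 to -0.48, adjusted p = 0.0284). The call depended on which library was left out. It held without accumbens 1 (adjusted p = 0.0126) or dorsal striatum 4 (0.0463). It was lost without accumbens 2 (adjusted p = 0.0631), accumbens 3 (0.0907), accumbens 4 (0.0780), dorsal striatum 1 (0.0966), dorsal striatum 2 (0.0658) or dorsal striatum 3 (0.0669). With each of the 8 libraries left out in turn the log2 fold change lay between -1.23 and -0.91. Closest in profile to Sema3e (chromosome 5, 14025276 to 14256689) were the plasma membrane calcium pump gene Atp2b1, Garnl3 and Egr3, an activity-regulated transcription factor gene, at root-mean-square differences of 0.18, 0.18 and 0.19.

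The other secreted member, Sema3a (chromosome 5, 13125414 to 13602565), repels axons through Nrp1 and a class A plexin. It stood at 29.5, 12.8, 16.8 and 19.4 CPM in accumbens, against 34.1, 36.3, 35.7 and 36.9 CPM in dorsal striatum. The regions did not overlap, and the dorsal values were tight, with a coefficient of variation of 3.35%, against 36.3% in accumbens. Sema3a nevertheless missed the threshold, at a log2 fold change of -0.86 ± 0.27 SE (95% confidence interval -1.43 to -0.30, adjusted p = 0.0915). DESeq2 called it (-0.86, adjusted p = 0.0336), and so did edgeR without accumbens 1 (-1.13, 0.0330).

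**Figure D2:**
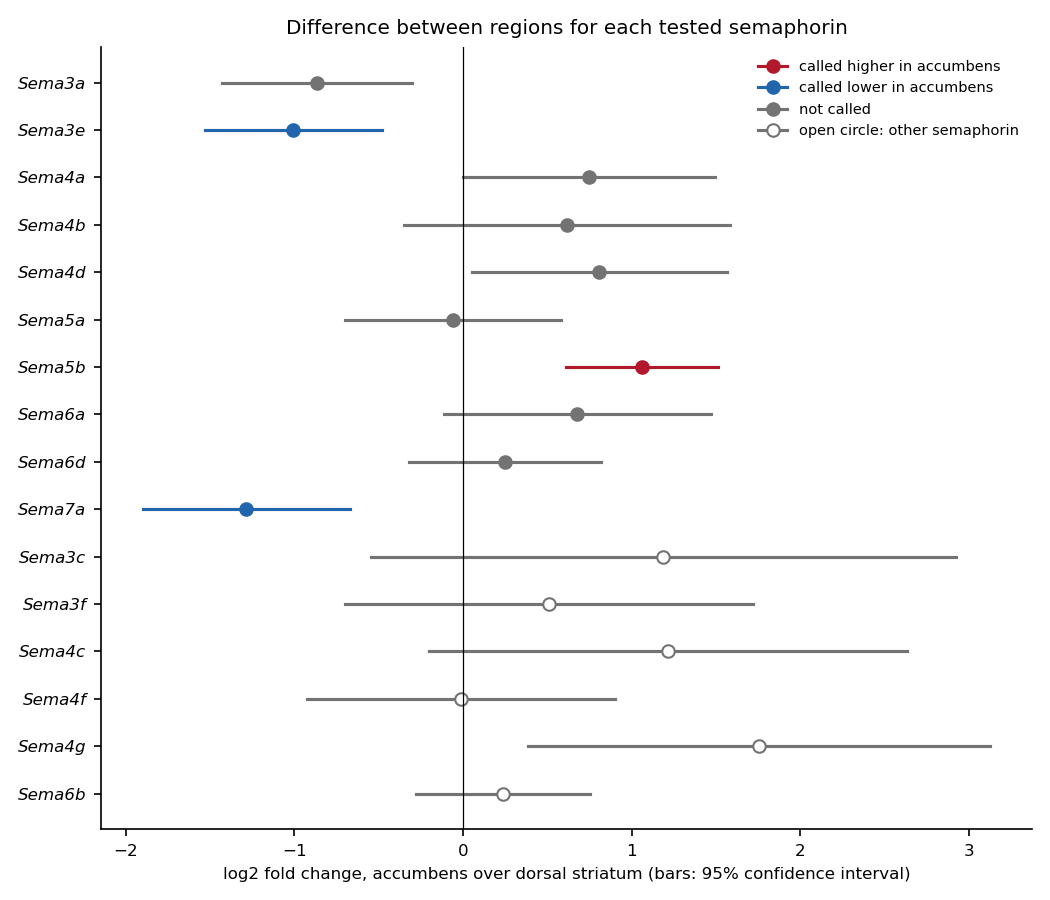
Log2 fold change of accumbens over dorsal striatum (horizontal axis) with its 95% confidence interval for the 10 members (filled circles) and the 6 other tested semaphorins (open circles). Sema5b is called higher, Sema3e and Sema7a are called lower, and the interval of Sema3a lies below 0 although its adjusted p is 0.0915.

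The 3 class 4 members had positive log2 fold changes and none passed the test. Sema4a (chromosome 3, 88435959 to 88461182), which acts on immune cells and on retinal photoreceptors, stood at 14.1, 34.4, 16.4 and 19.8 CPM in accumbens and at 18.9, 13.05, 9.41 and 8.97 CPM in dorsal striatum (log2 fold change 0.75 ± 0.35 SE, adjusted p = 0.335). Accumbens 2 was far above the other accumbens libraries for this gene, and without it the log2 fold change was 0.41. Sema4b (chromosome 7, 80186841 to 80226527), a member that binds the postsynaptic scaffold PSD-95, showed the same high library, with 8.88, 20.6, 5.93 and 6.95 CPM in accumbens and 6.51, 9.23, 6.50 and 5.42 CPM in dorsal striatum (log2 fold change 0.62 ± 0.46 SE, adjusted p = 0.606). Without accumbens 2 the log2 fold change of Sema4b was 0.07.

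Sema4d (chromosome 13, 51685529 to 51793747) promotes the assembly of GABAergic synapses in rodent hippocampus through Plxnb1 and is also made by oligodendrocytes. It stood at 15.3, 22.6, 19.7 and 18.8 CPM in accumbens and at 5.32, 11.8, 17.6 and 8.97 CPM in dorsal striatum (log2 fold change 0.81 ± 0.36 SE, 95% confidence interval 0.05 to 1.57, adjusted p = 0.293). Only dorsal striatum 3 reached into the accumbens range.

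The 2 class 6 members, which signal to plexins of class A, overlapped between regions. Sema6d (chromosome 2, 124089969 to 124667770), a ligand of Plxna1, stood at 49.3, 66.9, 53.7 and 83.4 CPM in accumbens and at 48.0, 65.9, 73.3 and 26.4 CPM in dorsal striatum. Its log2 fold change was 0.25 ± 0.27 SE (95% confidence interval -0.32 to 0.82, adjusted p = 0.757). It was 0.02 without dorsal striatum 4, 0.09 without accumbens 4 and 0.44 without dorsal striatum 3. Sema6a, a ligand of Plxna2 and Plxna4 that oligodendrocytes also make, stood at 10.5, 20.9, 26.5 and 13.7 CPM in accumbens and at 6.39, 16.2, 10.4 and 11.6 CPM in dorsal striatum. Its log2 fold change was 0.68 ± 0.37 SE (95% confidence interval -0.11 to 1.47, adjusted p = 0.431), and 0.43 without accumbens 3. An interval that reaches past a doubling shows that no difference was detectable for Sema6a at this replication, not that there was none.

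Per length, the order of the 10 members differed between the regions. Sema5b and Sema7a changed places at its top, and lower down Sema3a was number 9 in accumbens and number 5 in dorsal striatum. Levels here are CPM per kb of annotated exon. In accumbens Sema5b came first at 10.9 ± 2.37, followed by Sema7a at 6.61 ± 3.10 and Sema6d at 5.998 ± 1.45 CPM per kb (SD, n = 4). In dorsal striatum Sema7a came first at 16.1 ± 3.64, followed by Sema5b at 5.23 ± 1.04 and Sema6d at 5.06 ± 1.98 CPM per kb. Within the library, Sema7a was 1.01, 0.497, 0.363 and 0.601 times Sema5b per kb in accumbens replicates 1 to 4 and 3.44, 2.81, 2.97 and 3.09 times Sema5b in dorsal striatum. The ratio in accumbens 1, the only accumbens library in which Sema7a reached Sema5b, was still below all dorsal ratios. Each of these genes separated the regions, in opposite directions, so their ratio could not overlap between regions and adds nothing to those separations.

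**Figure D3:**
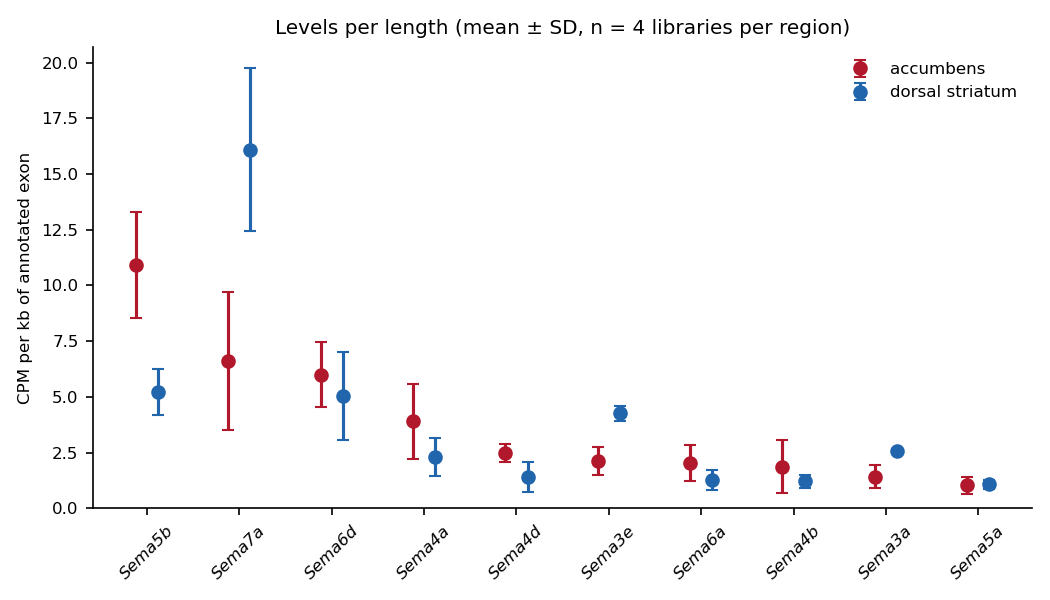
Mean level of each member in CPM per kb of annotated exon (vertical axis) in accumbens (red) and dorsal striatum (blue), with the SD over 4 libraries as bars and the genes in their accumbens order. Sema5b leads in accumbens at 10.9 and Sema7a in dorsal striatum at 16.1 CPM per kb.

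In accumbens the libraries' ranges overlapped for every pair of neighbours in the order, down to Sema5a at 1.04 ± 0.384 CPM per kb (SD, n = 4). In dorsal striatum the ranges were apart at 2 steps, between Sema7a and Sema5b and between Sema3e (4.26 ± 0.358) and Sema3a (2.58 ± 0.0862 CPM per kb). Within libraries, the gene of higher mean stood above its next neighbour in all 4 libraries for these 2 steps and, in accumbens, for Sema4a over Sema4d. The other neighbours changed places in at least 1 library. Sema4a, Sema4d, Sema6a, Sema4b and Sema5a followed there between 2.33 and 1.08 CPM per kb. The coefficient of variation was larger in accumbens for 8 of the 10 genes, the exceptions being Sema4d and Sema6d.

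The highest library differed from gene to gene. In accumbens, replicate 1 was the highest for Sema3a, Sema3e and Sema7a, replicate 2 for the 3 class 4 members, replicate 3 for Sema5a, Sema5b and Sema6a, and replicate 4 for Sema6d. In dorsal striatum, replicate 4 was the lowest library for Sema3e, Sema4a, Sema4b, Sema5b, Sema6d and Sema7a, but the highest for Sema3a. Dorsal striatum 1 was the lowest for Sema3a, Sema4d, Sema5a and Sema6a. No single library was therefore the highest or the lowest of its region for every member.

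Markers of other cells also differed between libraries. The 9 endothelial markers summed to 96.8, 10.9, 28.1 and 214.8 CPM in accumbens replicates 1 to 4. In dorsal striatum they summed to 12.8, 47.2, 84.5 and 20.9 CPM, and of 8 tested, 0 were called. The part of vascular cells in the values given here was not tested. The mean centred log2 level of tested astrocyte, oligodendrocyte and microglia markers was 0.37 ± 0.28 in accumbens and -0.37 ± 0.62 in dorsal striatum (SD, n = 4 each), highest in accumbens 1 at 0.75. Of 7 tested astrocyte markers, 1 was called higher in accumbens, the glutamate transporter gene Slc1a2, at 433 ± 173 CPM in accumbens and 230 ± 62.3 CPM in dorsal striatum (SD, n = 4 each, adjusted p = 0.0452). The 9 astrocyte markers summed to 258 to 703 CPM in accumbens and 199 to 375 CPM in dorsal striatum. A two-sided exact permutation test of the mean marker level gave p = 0.114. With this level as a covariate Sema7a stayed called (log2 fold change -1.80, adjusted p = 0.0252), while Sema5b (0.88, 0.252) and Sema3e (-1.24, 0.128) did not. The covariate was higher in accumbens on average, and calls over all genes fell to 47 higher and 73 lower genes with it. Beside Sema4d and Sema6a, the 8 oligodendrocyte markers summed to 127 to 323 CPM in accumbens and 122 to 191 CPM in dorsal striatum, and none was at 0 in every library. Of 5 tested, 0 were called by edgeR, DESeq2 or limma-voom or had an unadjusted p under 0.05. Their part in the semaphorin values was not tested.

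Cortical and thalamic neurons are known to make Sema3a, Sema3e and Sema7a. The 7 markers of these neurons summed to 85.0, 100.1, 90.6 and 23.8 CPM in accumbens and to 63.4, 108.9, 13.3 and 4.43 CPM in dorsal striatum, with Emx1 under 1 CPM in every library. Of these, 5 were tested, and 0 were called by edgeR, DESeq2 or limma-voom or had an unadjusted p under 0.05. Their part in the semaphorin values was not tested. Interneuron markers summed to 55.8 to 99.4 CPM over 8 genes in accumbens and to 32.9 to 77.6 CPM in dorsal striatum, with Slc18a3 at 0 throughout. Matrix markers summed to 1179 to 1476 CPM in accumbens and to 1526 to 1650 CPM in dorsal striatum. Of 7, 4 (Calb1, Cdh8, Id4 and Rasgrp2) were called lower and 0 higher in accumbens, against 2.12% and 1.60% of all tested genes. The others were Sv2b (log2 fold change -0.33), Epha4 (0.02) and Gucy1a3 (0.40), the last with all accumbens libraries above all dorsal ones. The part of compartment makeup in the values of Sema3e and Sema7a was not tested.

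Of the other 10 semaphorins, 6 were tested and edgeR called 0, with 1 at an unadjusted p under 0.05 and 0 called by DESeq2 or limma-voom. Sema4f, a transmembrane member, was the most abundant of them, with 38.2, 17.1, 127.4 and 35.3 CPM in accumbens and 55.4, 51.0, 81.1 and 32.5 CPM in dorsal striatum (log2 fold change -0.01 ± 0.43 SE, adjusted p = 0.996). Accumbens 3 lay above all the other libraries. Sema6b averaged 36.3 ± 4.90 CPM in accumbens and 30.8 ± 8.92 CPM in dorsal striatum (SD, n = 4 each, adjusted p = 0.738). Sema4g, the one under that unadjusted p, stood at 12.4, 5.20, 13.99 and 6.21 CPM in accumbens and at 0.710, 6.15, 0.968 and 3.25 CPM in dorsal striatum (log2 fold change 1.75 ± 0.65 SE, adjusted p = 0.180). Sema3b, Sema3d, Sema3g and Sema6c did not pass the filter, and each averaged at most 1.36 CPM in either region.

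Genes on the receiving side were read from lists of known partners. Of 11 plexins and neuropilins, 10 were tested, 6 were called higher in accumbens and 0 lower, with a median log2 fold change of 1.22. Among all tested genes 1.60% were called higher and 2.12% lower. Of the 10, 9 had positive log2 fold changes and 1 a negative one, whatever their ligand. A sign shared with a ligand, or opposite to it, is therefore no measure of the pair. For Sema5b, which signals through Plxna1 and Plxna3 in the mouse retina, both were called in the same direction as the ligand. Plxna1 averaged 31.7 ± 9.83 CPM in accumbens and 9.09 ± 3.84 CPM in dorsal striatum (SD, n = 4 each, log2 fold change 1.80, adjusted p = 0.00405). Plxna3 stood at 10.5 ± 9.30 CPM in accumbens and 1.01 ± 0.737 CPM in dorsal striatum (log2 fold change 3.40, adjusted p = 0.0139), with regions that overlapped and a call that was lost without accumbens 2 (adjusted p = 0.0946), dorsal striatum 1 (0.0554) or dorsal striatum 4 (0.0518) and with limma-voom (0.102).

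For Sema7a the log2 fold changes of the receptors had the opposite sign. Plxnc1 averaged 87.0 ± 9.21 CPM in accumbens and 39.7 ± 5.30 CPM in dorsal striatum (SD, n = 4 each, log2 fold change 1.13, adjusted p = 0.00106), called in each of 18 alternative fits. Itgb1, the integrin partner of Sema7a, was chosen after its values were seen. It averaged 17.8 ± 5.15 CPM in accumbens and 7.58 ± 0.972 CPM in dorsal striatum (SD, n = 4 each) and missed the threshold (log2 fold change 1.23, adjusted p = 0.0522). For Sema3e, the receptor Plxnd1 averaged 40.1 ± 11.8 CPM in accumbens and 67.7 ± 12.8 CPM in dorsal striatum (SD, n = 4 each), with regions that did not overlap. Its log2 fold change of -0.76 had the sign of Sema3e but was not called (adjusted p = 0.0844), although DESeq2 (0.0309), limma-voom (0.0460), edgeR without a filter (0.0331) and edgeR without accumbens 4 (0.0473) called it.

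For Sema3a, whose log2 fold change was negative, both neuropilins were called higher in accumbens. Nrp1 averaged 20.0 ± 8.22 CPM in accumbens and 6.72 ± 1.58 CPM in dorsal striatum (log2 fold change 1.57, adjusted p = 0.0190), and Nrp2, which prefers other class 3 ligands, 48.5 ± 9.34 CPM in accumbens and 19.6 ± 9.98 CPM in dorsal striatum (SD, n = 4 each, log2 fold change 1.30, adjusted p = 0.0366). The call of Nrp1 was lost without accumbens 3, dorsal striatum 1 or dorsal striatum 4 (adjusted p up to 0.111), and that of Nrp2 with any 1 library left out except accumbens 2 or dorsal striatum 4 (up to 0.112). For Sema6a, Plxna4 was called higher in accumbens (245 ± 48.2 CPM in accumbens and 118 ± 25.3 CPM in dorsal striatum, log2 fold change 1.05, adjusted p = 0.00142). Plxna2, at 322 ± 37.2 CPM in accumbens and 301 ± 26.0 CPM in dorsal striatum, was not called (log2 fold change 0.10, adjusted p = 0.807). Plxnb1, the receptor of Sema4d, averaged 15.6 ± 7.27 CPM in accumbens and 5.60 ± 3.50 CPM in dorsal striatum and was not called (log2 fold change 1.47, adjusted p = 0.111) except by DESeq2 (0.0402).

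Of 13 other receptors and co-receptors, 9 were tested and 1 was called, Robo1, a slit receptor, at 233 CPM in accumbens and 149 CPM in dorsal striatum (log2 fold change 0.65, adjusted p = 0.0204). L1cam, an adhesion protein that forms part of the Sema3a receptor, averaged 330 CPM in accumbens and 259 CPM in dorsal striatum and was not called (adjusted p = 0.208). Of 31 transducers of plexin signals, 28 were tested, 1 was called higher and 1 lower, with a median log2 fold change of 0.03. Beside both lists, the shares over all tested genes were 1.60% higher and 2.12% lower. Pak1, a Rac effector kinase, averaged 565 CPM in accumbens and 406 CPM in dorsal striatum (0.48, adjusted p = 0.0185), and Gsk3b, a kinase that phosphorylates collapsin response mediator proteins, 967 CPM in accumbens and 1583 CPM in dorsal striatum (-0.71, 0.00235). Rac1, a small GTPase downstream of plexins, averaged 858 CPM in accumbens and 914 CPM in dorsal striatum and was not called (adjusted p = 0.796). The call of Robo1 was lost without accumbens 2, accumbens 3, dorsal striatum 1 or dorsal striatum 3 (adjusted p up to 0.0814), and that of Pak1 without accumbens 2, accumbens 3, dorsal striatum 1 or dorsal striatum 2 (up to 0.0681). With the glial marker covariate, Plxnc1 was the receptor gene still called (adjusted p = 0.0140), while Plxna1 (0.260), Plxna3 (0.262), Plxna4 (0.115), Nrp1 (0.226), Nrp2 (0.243), Robo1 (0.196), Pak1 (0.0824) and Gsk3b (0.183) were not. None of 3 tested proteases that cut semaphorins was called by edgeR, DESeq2 or limma-voom, and 0 had an unadjusted p under 0.05.

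**Figure D4:**
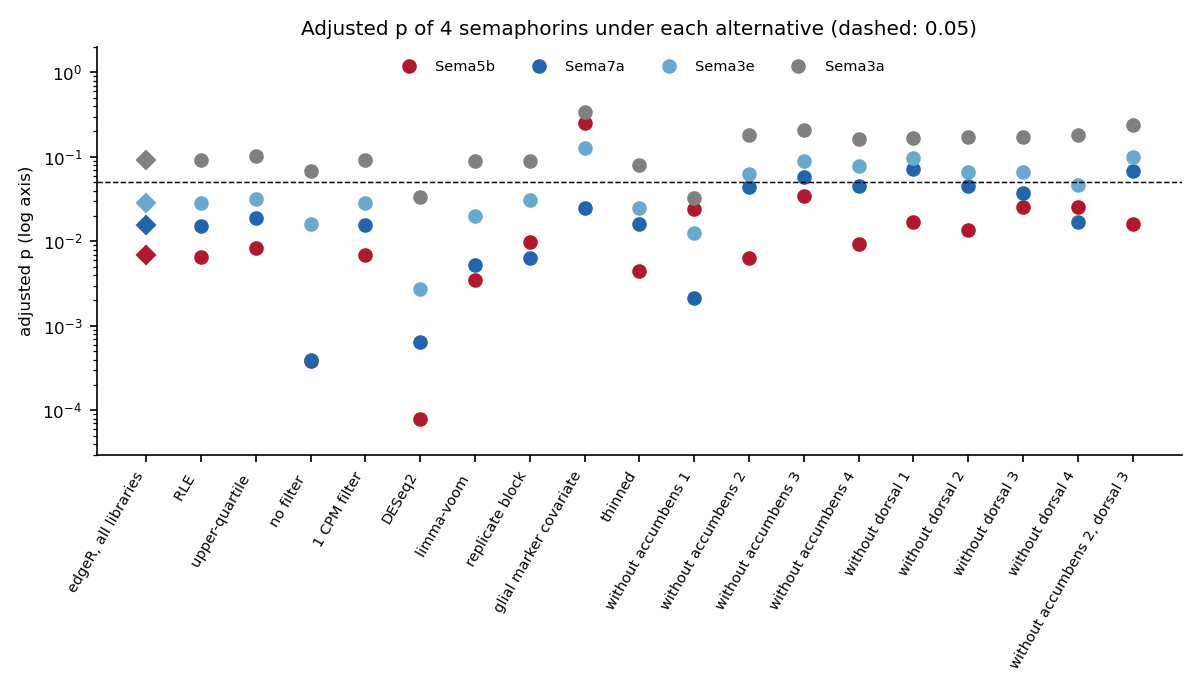
Adjusted p (vertical axis, log scale) of Sema5b, Sema7a, Sema3e and Sema3a with all libraries (diamonds) and under each of 18 alternatives (circles), with the threshold of 0.05 dashed. Sema5b lies above the threshold under the glial marker covariate alone (0.252), Sema7a under 3 alternatives and Sema3e under 8, while Sema3a lies below it under 2.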

How the data were processed

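The authors deposited unnormalized read counts, 1 table per library. Their processing notes name STAR 2.0.0e, HTSeq and the mm10 build. Annotation, strand setting and read filters are not given in the sources used here. HTSeq's totals of unassigned reads, 35.5% to 40.6% of a library in accumbens and 27.1% to 33.8% in dorsal striatum, were left out. No member's exons overlap another gene in GENCODE M21 (GRCm38, the coordinates of mm10) except a microRNA gene inside Sema4a.

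The whole table was fitted once in R 4.3.3, by the quasi-likelihood F test of edgeR 4.0.16 with TMM scaling and no block, after filterByExpr at a minimum count of 10. Fold changes are accumbens over dorsal striatum. CPM is relative to the TMM-scaled total, with a prior count of 2 for log2 profiles. Exon length is the union of GENCODE M21 exons, which can overstate the length of the transcripts present. Fitted dispersion gave a biological coefficient of variation of 0.318 for genes of 5 to 100 CPM, the range of the members. No 2 libraries of a region agreed within sampling noise, with chi-square per degree of freedom of at least 15.5.

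Named were all 10 members, each tested plexin or neuropilin of interest, the called genes and up to 3 of the most abundant of each other list, and the 3 genes closest in profile to each called member. Itgb1 and the striosome genes that were not called were added after their values were seen. Emx1, Slc18a3 and the semaphorins that did not pass the filter were named for their low values. Members and lists were chosen with earlier results of these data known. Alternatives were upper-quartile and RLE scaling, no filter, a filter of 1 CPM in 4 or more libraries, DESeq2 1.42.0 and limma-voom (limma 3.58.1). Every limma-voom fit named here used library quality weights. Further alternatives were the replicate number as a block, a glial marker covariate, thinned libraries and each library left out. Dropping both accumbens 2 and dorsal striatum 3, which an earlier result on these data had shown to correlate least with the rest, was added after seeing the data.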

Additional observations from a re-analysis of the deposited data

Results flagged for a closer look

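Among 20 sets of 4 values, 1 for each member and region, 2 had a library far from the other 3 by Dixon's test at its 95% critical value, which chance gives for about 1 set in 20. Sema3e stood at 28.3 CPM in accumbens 1, where the other accumbens libraries lay between 15.6 and 17.6 CPM. Sema7a stood at 37.0 CPM in the same library, where the others lay between 14.8 and 18.4 CPM. Both values lie toward the dorsal range. Accumbens 1 was also the highest accumbens library for Sema3a, at 29.5 CPM, but not beyond the critical value. This library had the highest level of glial markers of the 8 (0.75 on the centred log2 scale) and the highest indirect-pathway sum (945 CPM). Without it the log2 fold changes were -1.23 for Sema3e, -1.66 for Sema7a and -1.13 for Sema3a, all called (adjusted p = 0.0126, 0.00217 and 0.0330). The part of other cells in these values was not tested.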

How the results depend on the processing

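Sema5b was called higher in all alternatives except the glial marker covariate, under which 0 members were called higher and 1 lower. Leaving out 1 library gave 0 to 3 members called lower, and 0 without both accumbens 2 and dorsal striatum 3. Same-numbered libraries of the 2 regions did not deviate together (r between -0.081 and 0.014), and 0 of 8 libraries correlated best with its own number. With the replicate block the same numbers of members were called, 1 higher and 2 lower, and 194 and 238 of all genes. Calls over all genes were 375 higher with DESeq2, 350 higher without a filter, and 47 higher and 73 lower with the glial marker covariate, and the cause was not tested. Among the log2 fold changes recomputed, the sign turned for 3 semaphorins. Sema5a was at 0.14 with the covariate, at -0.31 to 0.091 with 1 library left out and at 0.20 without the pair of libraries. Sema6d was at -0.015 with the covariate. Sema4f was at 0.22 with the covariate, at -0.86 to 0.28 with 1 library left out and at 0.53 without the pair. Depth differed between regions, and thinning to the smallest total gave 1 and 2 members called.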
